A study of Mus musculus with 16 samples.

Results

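The comparison described here sets hippocampal RNA of mice kept in environmental enrichment (EE) against that of mice kept in standard cages (SC), on the arrays whose titles carry replicate number 1 or 2. These are 8 of the 16 arrays of the series, 2 in each of 4 groups: wild-type mice in standard cages (WT_SC), wild-type mice in enrichment (WT_EE), cbp+/- mice in standard cages (CBP_SC) and cbp+/- mice in enrichment (CBP_EE). An array is named by its group and replicate number, as in WT_EE_1. All mice were females, 3 months old, and F2 animals of the strains C57BL/6J and DBA. The cbp+/- mice carry a heterozygous deficiency of CBP, the product of Crebbp, and the wild-type mice were their littermates. Enriched mice spent 2 weeks in a large box with running wheels, tubing and toys that were rearranged during that time, and the hippocampi were collected many hours after the last rearrangement. Each array read equal amounts of RNA from 4 mice, so the 8 arrays stand for 32 mice, and differences between mice within a pool were not measured. Running, novelty and group size changed together between both housings and cannot be told apart. The other 8 arrays, 2 from enrichment and 6 from standard cages with replicate numbers 3 to 5, were used as a separate set of the same comparison.

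CBP acetylates histones and serves the transcription factor CREB as a coactivator. When neurons fire, calcium entry leads to phosphorylation of CREB and of serum response factor cofactors, and a set of immediate early genes is transcribed without new protein synthesis. Some of their products are transcription factors (Fos, Egr1, Nr4a1), others act at synapses (Arc) or are secreted (Bdnf), and the mRNAs of many of them are short-lived. Environmental enrichment is a paradigm in which such genes, neuropeptides and adult neurogenesis in the dentate gyrus are often studied.

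The lists with the largest share of members higher in enrichment were activity-regulated genes, and protocadherin beta genes and glutamate receptors had the largest shares lower. Of 21780 probe sets with exactly 1 gene symbol, 2684 passed an adjusted p of 0.05 (limma with genotype as a covariate, Benjamini-Hochberg over all probe sets). Enrichment was higher for 1303 of them, 5.98% of all tested, and lower for 1381, 6.34%. Counted by gene, with the brightest probe set standing for each of 19935 genes, 6.17% passed higher and 5.64% lower. The changes were small. The fold change exceeded 1.5 for 59 probe sets, of which 9 were higher and 50 lower in enrichment, and exceeded 2 for 0. All 2684 had the same sign in both genotypes, which their choice on the mean of both favours. The 4 enrichment arrays lay above all 4 standard-cage arrays for 13.9% of the probe sets, and below all of them for 9.48%.

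The number of calls rested on single arrays. Without WT_SC_1, WT_EE_2 or CBP_EE_2 only 1 probe set passed, without WT_SC_2 or CBP_SC_1 only 2 did, without WT_EE_1 1448 did, and without CBP_EE_1 5240 did. After quantile normalization 1573 passed, and 1211 of the 2684, or 45.12%, were called in the same direction by both. Nr4a1 was the sole gene that passed with every one of the 8 arrays left out in turn, with adjusted p from 0.00420 to 0.0281. Arc, Bdnf and Fos each passed in only 3 of those 8 fits. Their changes ran from 0.70 to 0.89, from 0.33 to 0.36 and from 0.65 to 0.81 over these fits.

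The promoters of 4 of the genes described next are shown first, because CREB, with which CBP works, is a regulator of activity-regulated genes. The windows come from RefSeq (assembly GRCm38.p6) and run from 250 bases before to 50 bases after the annotated start, 5′ to 3′ on the gene's strand. A window was available for 8 of the 10 immediate early transcription factors that passed, 6 of 9 activity effectors and 4 of 6 neuropeptides. The promoters of the others were not searched. Among the searched genes of these lists that passed, Maff (chr15:79347270-79347569, plus strand) and Sst (chr16:23890795-23891094, minus strand) hold a full cAMP response element (CRE, TGACGTCA), which is in capitals. It begins 29 bases before the start in Maff and 48 in Sst. Hspa5 (chr2:34771840-34772139, plus strand), an endoplasmic reticulum chaperone that rose by 0.20 (SE 0.042, adjusted p 0.0283), was chosen with them for the shorter letters TGACG on either strand (CGTCA when read from the other one), in capitals here. Nr4a1 (chr15:101266596-101266895, plus strand) was added after its values were seen. It holds the same shorter letters 4 times, beginning 233, 213, 69 and 40 bases before the start.
Maff: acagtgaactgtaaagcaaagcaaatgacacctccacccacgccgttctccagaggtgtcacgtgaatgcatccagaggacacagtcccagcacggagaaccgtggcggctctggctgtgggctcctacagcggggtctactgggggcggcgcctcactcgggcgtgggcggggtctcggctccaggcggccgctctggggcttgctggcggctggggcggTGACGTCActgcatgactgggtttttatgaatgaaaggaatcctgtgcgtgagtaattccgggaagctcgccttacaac
Sst: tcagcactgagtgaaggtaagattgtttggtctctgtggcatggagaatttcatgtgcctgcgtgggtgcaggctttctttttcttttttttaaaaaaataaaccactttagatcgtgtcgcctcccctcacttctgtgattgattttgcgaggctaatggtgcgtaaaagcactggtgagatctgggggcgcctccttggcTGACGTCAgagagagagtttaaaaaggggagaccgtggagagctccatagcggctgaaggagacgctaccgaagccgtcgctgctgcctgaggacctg
Hspa5: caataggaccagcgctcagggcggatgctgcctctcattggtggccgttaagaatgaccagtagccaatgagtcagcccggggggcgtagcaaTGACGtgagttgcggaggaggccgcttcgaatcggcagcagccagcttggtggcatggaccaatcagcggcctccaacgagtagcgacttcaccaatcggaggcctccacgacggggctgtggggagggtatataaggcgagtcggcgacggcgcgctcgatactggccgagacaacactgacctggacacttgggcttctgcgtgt
Nr4a1: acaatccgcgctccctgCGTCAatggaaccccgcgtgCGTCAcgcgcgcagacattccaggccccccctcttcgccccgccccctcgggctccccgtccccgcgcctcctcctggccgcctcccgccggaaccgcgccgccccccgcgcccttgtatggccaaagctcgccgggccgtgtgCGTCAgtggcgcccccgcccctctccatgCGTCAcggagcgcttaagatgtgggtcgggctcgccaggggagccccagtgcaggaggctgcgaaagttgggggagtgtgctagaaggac

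Across the 15612 tested genes with a window, 2.72% held TGACGTCA and 28% held TGACG on either strand, counting a gene where any of its windows held the letters. A full element contains the shorter letters on both strands. Of the 16 activity transcription factors with a window, 1 held the full element and 13, or 81.2%, the shorter letters. Among the 8 of them that passed, 7 did. Of 17 activity effectors with a window, 2 held the full element and 10 the shorter letters, and of 15 neuropeptides 3 and 12 did. The E-box letters CACGTG, searched in the same windows, were in 9.50% of all genes and in 4 of the 16 activity transcription factors. A match is a description of the letters, not a measured site.

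Of 21 measured transcription factors of the immediate early class, 10 passed higher and 0 lower. A positive change was seen in 20 of 21, or 95.2%, against 61.75% over all genes. Their median change was 0.21 on the log2 scale against 0.04 over all genes. Nr4a1 (nuclear receptor of the Nur77 family) had log2 signals of 9.45 and 9.30 on the wild-type and 9.35 and 9.29 on the cbp+/- enrichment arrays. In standard cages it had 8.50 and 8.56 in wild type and 8.64 and 8.50 in cbp+/-. The lowest enrichment array thus stood well above the highest standard-cage array in both genotypes. The change was 0.80 (SE 0.053), a fold of 1.74, with an adjusted p of 0.00276, the smallest of all probe sets.

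Fos, the DNA-binding partner of Jun proteins in AP-1, was a dim probe set. Its log2 signals in enrichment were 7.30 and 7.04 in wild type and 6.88 and 6.91 in cbp+/-, and in standard cages they were 6.08, 6.35, 6.31 and 6.41 in the same order. The groups did not overlap, and the change was 0.75 (SE 0.10, adjusted p 0.0198). Egr1, a zinc finger factor induced by serum response factor, ranged from 7.20 to 7.51 in enrichment and from 6.48 to 6.81 in standard cages, a change of 0.59 (SE 0.091, adjusted p 0.0202). Its relatives Egr2 and Egr4 rose by 0.45 and 0.46, and Egr3 rose by 0.21 with overlapping groups. Npas4, a neuron-specific factor that responds to calcium, rose by 0.36 (SE 0.052), from 6.18 to 6.39 in standard cages to 6.43 to 6.82 in enrichment. Fosb rose by 0.37, Fosl2 by 0.19 and Maff by 0.23, the last with an adjusted p of 0.109 after quantile normalization. Junb had a change of 0.29 (SE 0.094) with overlapping groups and an adjusted p of 0.0688, which did not pass. Nr4a2 and Nr4a3 lay above the standard cages on all 4 enrichment arrays, with changes of 0.17 and 0.12 that did not pass.

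Of 21 activity effectors, whose products act outside transcription, 9 passed higher and 0 lower, with a median change of 0.21. Arc, a synaptic protein involved in AMPA receptor trafficking, had enrichment signals of 9.05 and 8.71 in wild type and 8.60 and 8.52 in cbp+/-. Its standard-cage signals were 7.93 and 7.85 in wild type and 8.06 and 7.83 in cbp+/-. The groups were apart in both genotypes, with a change of 0.80 (SE 0.10, fold 1.75, adjusted p 0.0197).

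Bdnf, a neurotrophin that acts through TrkB, had enrichment signals of 7.29, 7.25, 7.18 and 7.23 (wild type, then cbp+/-) against 6.91, 6.95, 6.86 and 6.84 in standard cages. The 4 arrays of each housing were close together, and the change of 0.35 (SE 0.038, adjusted p 0.0197) was almost the same in wild type, 0.34, and in cbp+/-, 0.35. Sik1, a salt-inducible kinase that restrains CREB coactivators, rose by 0.42 (SE 0.065). Trib1 (a pseudokinase) rose by 0.40, Inhba (the activin A subunit) by 0.24, Ccn1 by 0.31, Gadd45g by 0.25, Amigo3 by 0.15 and Ptgs2 (cyclooxygenase 2) by 0.26. Of these, Ccn1, Gadd45g and Amigo3 did not pass after quantile normalization, with adjusted p of 0.0599, 0.0570 and 0.671. Homer1, a postsynaptic scaffold with an activity-induced short form that was not measured apart, had a change of 0.15 (SE 0.048, adjusted p 0.0640), which did not pass.

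**Figure D1:**
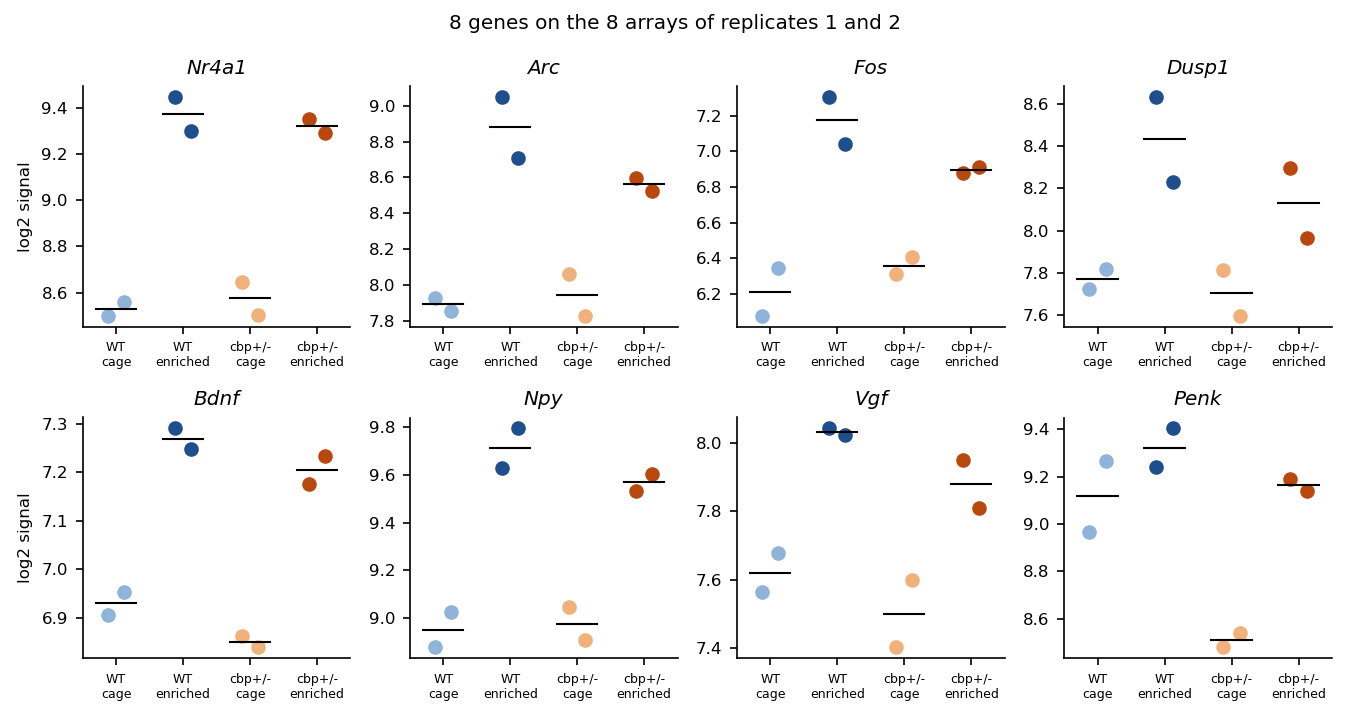
Log2 signal (vertical axis, a different range in each panel) of 8 genes on the 8 arrays of replicates 1 and 2, by genotype and housing (horizontal axis). Each point is 1 array of 4 pooled mice, and the black bar is the mean of 2 arrays. Both enrichment groups lie above both standard-cage groups for every gene but Penk, whose wild-type standard-cage arrays reach 9.26.

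MAP kinase phosphatases and related feedback genes, which switch off the ERK pathway that also drives the immediate early genes, gave 3 of 10 members higher and 0 lower. Dusp1 was at 8.63, 8.23, 8.30 and 7.97 in enrichment and at 7.72, 7.82, 7.81 and 7.60 in standard cages, wild type first. All 4 enrichment arrays were higher, but the spread among them was wide, and the change was 0.54 (SE 0.11, adjusted p 0.0261). Dusp6, which acts on ERK in the cytoplasm, rose by 0.40 (SE 0.065), and Dusp5, its nuclear relative, by 0.28. Spry4 had a change of 0.21 with an adjusted p of 0.0563, and Dusp8, Spry2 and Spred1 had changes from -0.10 to 0.01.

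Among 18 neuropeptides and their processing partners, 6 passed higher and 0 lower, and the median change was 0.11. Npy, the inhibitory peptide of many interneurons, had 9.63 and 9.79 in wild-type enrichment, 9.53 and 9.60 in cbp+/- enrichment, and 8.88, 9.02, 9.05 and 8.91 in the standard-cage arrays. The groups were far apart relative to their spread, with a change of 0.68 (SE 0.064, fold 1.60, adjusted p 0.0181). Vgf, a secreted precursor induced by BDNF, rose from 7.40 to 7.68 in standard cages to 7.81 to 8.04 in enrichment, a change of 0.40 (SE 0.057, adjusted p 0.0202). Cort (cortistatin) rose by 0.49 (SE 0.11), Sst (somatostatin, whose promoter is printed above) by 0.22 (SE 0.052), and Adcyap1 (PACAP) by 0.22, with an adjusted p of 0.159 for the last after quantile normalization.

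Penk, the enkephalin precursor, passed with a change of 0.43 (SE 0.10, adjusted p 0.0346), but its groups overlapped. It was at 9.24 and 9.40 in wild-type and 9.19 and 9.14 in cbp+/- enrichment, at 8.97 and 9.26 in wild-type standard cages, and at 8.48 and 8.54 in cbp+/- standard cages. The low standard-cage arrays were those of cbp+/- mice, and the change was 0.21 in wild type and 0.66 in cbp+/- (interaction adjusted p 0.223). Penk is also a marker of the striatum. Of 13 striatal genes 2 passed higher, Penk and Gpr6, while Drd1 and Drd2 had changes of 0.20 and 0.10 that did not pass. The summed linear signal of the striatal genes was 2051 to 2222 in enrichment and 1783 to 2168 in standard cages, and its part in the Penk result was not tested. Crhbp, a binding protein of corticotropin-releasing hormone found in interneurons, rose by 0.46 (SE 0.062), while 1 of 19 genes of GABAergic neurons passed, Sst itself.

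Glucocorticoid targets, genes induced by corticosterone through the receptor encoded by Nr3c1, gave 7 of 21 members higher and 1 lower, with a median change of 0.15. Sgk1, a kinase used as a marker of corticosterone action, had 8.75 to 8.89 in enrichment and 8.39 to 8.58 in standard cages, a change of 0.35 (SE 0.051, adjusted p 0.0202). Nfkbia rose by 0.31, Plin4 by 0.43, Tsc22d3 (GILZ) by 0.26, Arrdc2 by 0.22, Map3k6 by 0.22 and Dusp1, which belongs to this list too, by 0.54. Plin4, Tsc22d3, Arrdc2 and Map3k6 did not pass after quantile normalization, with adjusted p of 0.0524, 0.139, 0.154 and 0.247. Nr3c1 itself fell by 0.25 (SE 0.047), below all standard-cage arrays. Fkbp5, a chaperone cofactor that is among the most corticosterone-sensitive genes of the brain, had a change of 0.03 (SE 0.062, adjusted p 0.758), with 7.93, 7.79, 8.10 and 8.15 in enrichment and 8.003, 7.92, 7.98 and 7.96 in standard cages.

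Of 15 core clock genes 2 passed higher (Timeless and Per2, 0.21 each) and 2 lower (Rorb, -0.30, and Arntl, -0.27), and after quantile normalization only Arntl passed. Per1 and Dbp had changes of 0.15 (SE 0.067) and 0.17 (SE 0.061), with adjusted p of 0.131 and 0.0833, and overlapping groups.

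The lowest median change of the 38 gene lists was that of the protocadherin beta genes, a cluster of cell-surface adhesion receptors of which each neuron expresses a few. Of 22 members, 12 passed lower and 0 higher, and 21 of 22 had a negative change, whereas 61.75% of all genes had a positive one. The median change was -0.30 (-0.33 after quantile normalization). Pcdhb9 was at 5.81 to 6.26 in enrichment and at 6.56 to 6.75 in standard cages, a change of -0.62 (SE 0.082, adjusted p 0.0198). Pcdhb3, Pcdhb14, Pcdhb18 and Pcdhb22 fell by 0.50, 0.40, 0.39 and 0.39, with Pcdhb3 overlapping between housings. The median change was -0.41 in wild type and -0.18 in cbp+/-. These genes are close copies of each other, and array probes may read more than 1 of them, so the members are not independent measurements.

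Glutamate receptors fell more often than they rose: 8 of 23 passed lower and 1 higher, and the median change was -0.14. Gria2, the AMPA receptor subunit that sets calcium permeability, was at 11.04 to 11.22 in enrichment and at 11.37 to 11.55 in standard cages, a change of -0.29 (SE 0.057, adjusted p 0.0261). Gria1 fell by 0.24, Gria4 by 0.21, the kainate receptor Grik2 by 0.39, the NMDA receptor subunits Grin3a, Grin2b and Grin2a by 0.30, 0.19 and 0.14, and Grm5 by 0.17. Grm2, a presynaptic metabotropic receptor, rose by 0.20 (SE 0.037). After quantile normalization 4 members passed lower and 1 higher.

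Of 23 sodium and calcium channel genes 6 passed lower and 0 higher (median -0.11), among them Cacna2d1 (-0.36, SE 0.056), Scn1a (-0.35), Scn3a (-0.28), Scn8a (-0.26) and Cacna1e (-0.19). Of 23 potassium channel genes 5 passed lower, such as Kcna4 (-0.28) and Kcnb2 (-0.23), and 1 higher, the leak channel Kcnk1 (0.18, SE 0.043). With quantile normalization 3 and 0 of these falls passed, and the medians were -0.06 and -0.04.

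Of 17 acetyltransferase genes 4 passed lower and 0 higher. Ep300, the closest relative of Crebbp, was at 8.14 to 8.28 in enrichment and 8.42 to 8.54 in standard cages, a change of -0.24 (SE 0.049, adjusted p 0.0267), and Kat6b, Atf2 and Taf1 fell by 0.28, 0.28 and 0.22, the last with an adjusted p of 0.0786 after quantile normalization. Crebbp itself had a change of -0.13 (SE 0.043, adjusted p 0.0742). It was at 9.25, 9.18, 9.37 and 9.33 in enrichment and 9.32, 9.41, 9.50 and 9.42 in standard cages, wild type first. The cbp+/- arrays were not below the wild-type arrays of the same housing, and the labels do not say which part of the gene is missing, so this probe set does not check the genotype. Of 17 deacetylase genes 1 passed lower and 0 higher.

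RNA-binding proteins of the cold-inducible and SR splicing group gave 4 of 18 lower and 0 higher. Cirbp, whose mRNA rises as temperature falls, was at 8.15, 8.40, 8.44 and 8.56 in enrichment and at 8.76, 8.72, 8.83 and 8.78 in standard cages, and fell by 0.38 (SE 0.065, adjusted p 0.0216). Rbm3, the other gene of this kind, had a change of -0.27 (SE 0.10, adjusted p 0.0914). Srsf5, Son and Srsf1 fell by 0.34, 0.26 and 0.17, the last with an adjusted p of 0.211 after quantile normalization.

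Genes of adult neurogenesis gave calls in both directions, in lists of 11 to 17 members. Over all genes 6.17% passed higher and 5.64% lower. The shares were 13.3% and 6.67% for newborn granule neurons, 0% and 18.2% for neural stem cells, and 5.88% and 0% for proliferating cells. Dcx, a microtubule protein of newborn neurons, was at 7.05, 6.84, 6.86 and 6.77 in enrichment and 7.24, 7.24, 7.03 and 7.12 in standard cages, and fell by 0.28 (SE 0.054, adjusted p 0.0251), with WT_EE_1 just above the lowest standard-cage array. Sox11 had a change of -0.23 (adjusted p 0.0684). Of 15 genes of newborn granule neurons 2 passed higher, Draxin (0.36) and Igfbpl1 (0.29), and 1 lower, and neither rise passed after quantile normalization. In neural stem cells Sox2 and Fabp7 fell by 0.47 and 0.40 and 0 of 11 genes passed higher. Of these 11, 8 had a positive change, or 72.7%, against 61.75% over all genes. Their median was 0.06 (0.09 after quantile normalization), against 0.04 over all genes. Of 17 genes of proliferating cells 1 passed, Aurka, with a rise of 0.23, and 0 did after quantile normalization. Igf1, a growth factor often studied in running mice, had a change of -0.01 (SE 0.045).

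Among 4499 bright genes, those that passed, that separated the housings completely and that also passed after quantile normalization numbered 76 higher and 213 lower. Over all probe sets 13.9% separated completely upward and 9.48% downward. The rule required a call without quantile normalization too, where 110 bright probe sets passed higher and 707 lower. After quantile normalization 279 and 280 did, so the excess of falls depends on that requirement. The 10 largest of the 76 rises were those of Arc, Nr4a1, Npy, Megf6, Dusp1, Mettl23, Rpph1, Crhbp, Myo18b and Dusp6. Megf6, a secreted protein with EGF-like repeats, rose by 0.61 (SE 0.13). Mettl23 (a methyltransferase-like protein) and Myo18b (an unconventional myosin) rose by 0.49 and 0.41, and Rpph1, the RNA subunit of ribonuclease P, by 0.48. The 10 largest falls ran from -0.65 to -0.51. Setd2, which trimethylates lysine 36 of histone H3, was at 7.56 and 7.86 in wild-type and 7.86 and 7.70 in cbp+/- enrichment, against 8.52, 8.44, 8.35 and 8.27 in standard cages, a change of -0.65 (SE 0.080, adjusted p 0.0197). Arhgap5 fell by 0.63, Guf1 (a mitochondrial elongation factor) by 0.60, Ano3 by 0.57, Fyttd1 (an mRNA export factor) by 0.54, Pdcd4 (an inhibitor of translation initiation) by 0.53 and Npm1 (nucleophosmin) by 0.52. Zfp825, Stxbp4 and Zkscan16 fell by 0.57, 0.52 and 0.51.

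**Figure D2:**
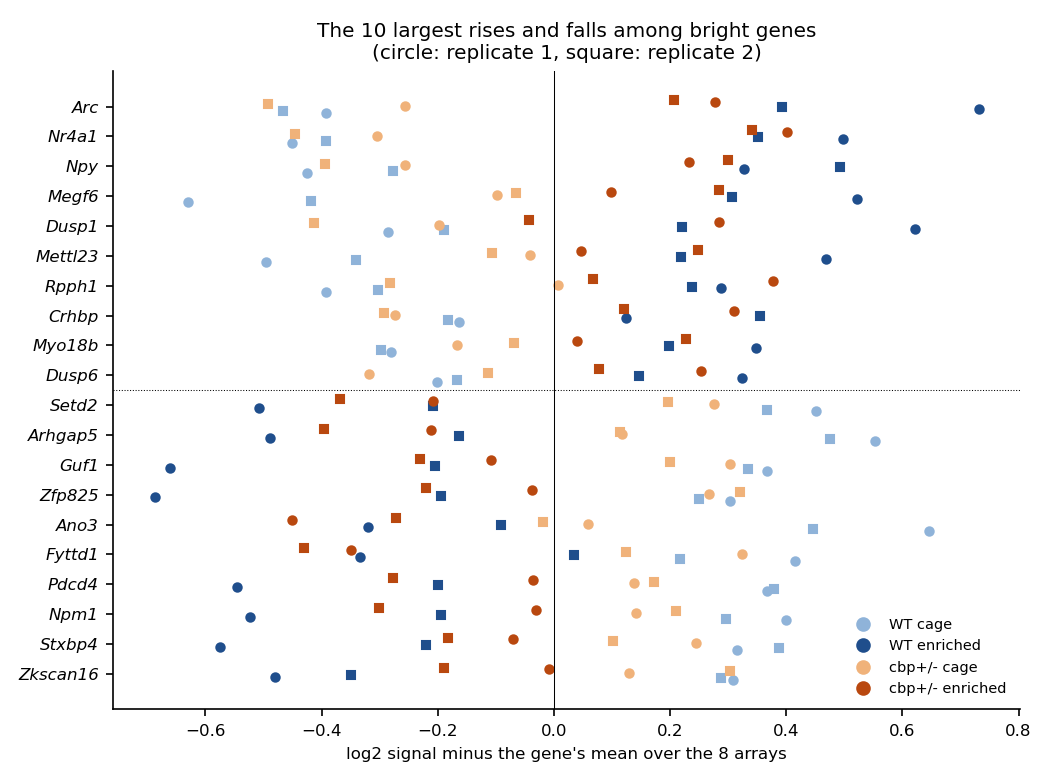
Log2 signal of each array minus the gene's mean over the 8 arrays (horizontal axis) for the 10 largest rises (above the dotted line) and falls (below it) among bright genes, by the rule given with the methods. Each point is 1 array, coloured by group. WT_EE_1 is the most extreme enrichment array for genes such as Guf1 and Zfp825, and the enrichment and standard-cage arrays do not overlap in any of the 20 genes because the rule required it.

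Among dim probe sets, with a mean log2 signal under 8, the largest rises were Prp2 (0.88, SE 0.21), Fos (0.75) and Nrtn (neurturin, a GDNF-family factor, 0.61). The largest falls were the zinc finger genes Zfp931 (-0.89, SE 0.22, adjusted p 0.0506 after quantile normalization) and Zfp617 (-0.73), and Mindy2 (-0.71). Prp2 ranged from 6.52 on WT_SC_1 to 8.33 on WT_EE_1, and its change was 1.36 in wild type and 0.40 in cbp+/- (interaction adjusted p 0.220).

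The bright genes that moved differed in genomic length. The RefSeq span of a gene, exons and introns together, had a median of 32.4 kb over 4498 bright genes. It was 7.43 kb (quartiles 3.10 and 19.0) for the 97 bright genes that passed higher and 71.4 kb (quartiles 36.4 and 145) for the 606 that passed lower. For those that passed after quantile normalization too, the medians were 7.46 kb over 96 genes and 75.7 kb over 222. These are descriptions without a test.

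Bright and dim probe sets shifted in opposite directions. In 10 classes of equal size by mean signal, the median change rose from 0.03 in the dimmest to 0.13 in the fourth class and fell to -0.08 in the ninth. Among the 5080 probe sets with a mean log2 signal of at least 8, 110 passed higher and 707 lower, and among the 16700 dimmer ones 1193 passed higher and 674 lower. Quantile normalization, which gives every array the same distribution, brought all class medians to between 0.00 and 0.02 and gave 279 higher and 280 lower among bright probe sets, and 430 and 584 among dim ones. The interquartile range of log2 signals was 2.35 ± 0.089 (SD, n = 4) in enrichment and 2.52 ± 0.054 (SD, n = 4) in standard cages, and WT_EE_1 had the narrowest at 2.22. All 4 enrichment arrays were narrower than all 4 standard-cage arrays (exact two-sided permutation test, p = 0.0286, the smallest that 4 against 4 allows). Genes of liver, muscle, testis and pancreas, which a hippocampus should hardly express, had positive changes in 33 of 33, against 61.75% over all genes. Their median was 0.12, and 0.04 after quantile normalization. Of these, 3 passed higher before quantile normalization and 0 after it. The part of this shift in the other results was not tested. Activity transcription factors (0.23), activity effectors (0.24), neuropeptides (0.09) and protocadherin beta genes (-0.33) kept their median direction and close to their size after quantile normalization, while the medians of the acetyltransferases and of both channel families shrank to between -0.06 and -0.04.

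**Figure D3:**
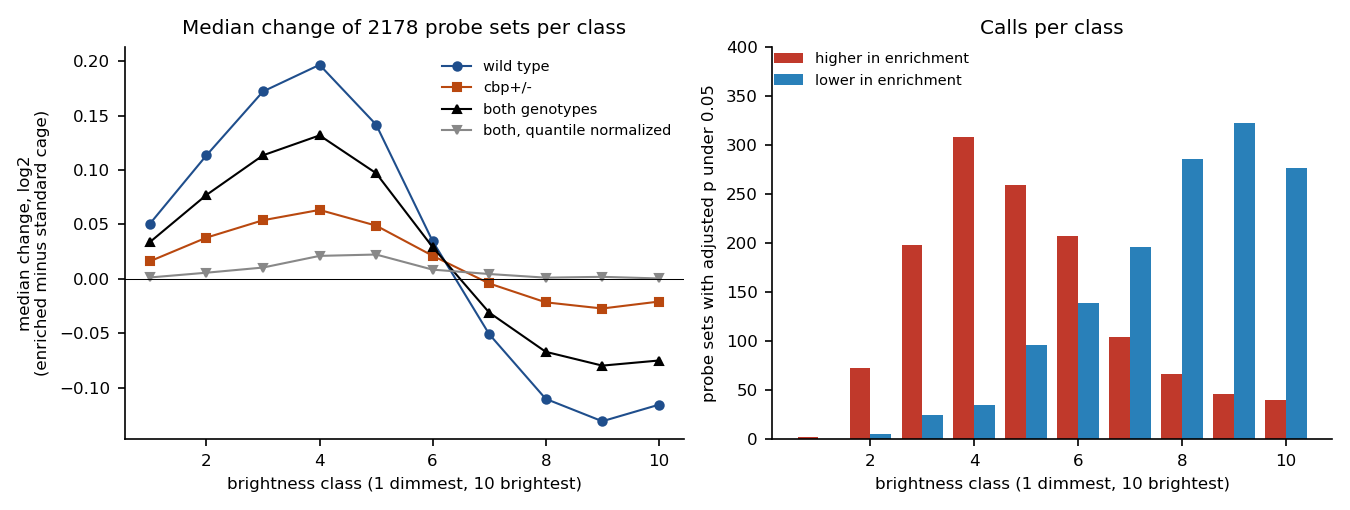
Left: median change (enriched minus standard cage, log2) of 2178 probe sets in each of 10 brightness classes, for wild type, cbp+/-, both together, and both after quantile normalization. Right: probe sets with an adjusted p under 0.05 per class. The change is positive in dim and negative in bright classes, larger in wild type (up to 0.20) than in cbp+/- (up to 0.06), and near 0 after quantile normalization.

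The arrays were alike overall. Log2 signals correlated at 0.995 to 0.998 between arrays of 1 group and at 0.984 or more between any of the 8. The first principal component of the 8 held 63.0% of the variance, and 69.4% of that lay between the housings. It was computed without quantile normalization, and its scores ordered the 8 arrays exactly as their interquartile ranges did. They ran from -19 on WT_SC_1, with the widest range (2.58), to 25.1 on WT_EE_1, with the narrowest (2.22). Housing and the spread of signals cannot be told apart on this component. Hippocampal markers were present on all 8: Prox1 of dentate granule cells at 8.24 to 8.50, Wfs1 of CA1 at 7.78 to 8.38 and Pcp4 of CA2 at 10.6 to 10.9. Ttr, a choroid plexus gene, varied from 7.38 on CBP_SC_2 to 10.9 on WT_SC_1 without regard to housing (change -0.73, SE 0.61, adjusted p 0.388). Of 18 choroid plexus genes, 14 thalamic genes and 3 blood genes 0 passed, and 1 of 15 meningeal and 2 of 13 striatal genes passed higher. The median changes were 0.06 for choroid plexus, -0.09 for thalamus, 0.23 for blood, 0.14 for meninges and 0.10 for striatum, against 0.04 over all genes. The blood list is too short to read, and carry-over of these tissues was not tested. The summed choroid plexus signal was 1167 to 1709 in enrichment and 1102 to 2889 in standard cages. In bulk tissue, fewer cells of a type and less RNA per cell cannot be told apart.

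Taken by genotype, in 1 fit with 4 group means, calls were made in wild type only, which by itself does not show that the genotypes differ. Enrichment passed for 6513 probe sets in wild type, 16.1% of all tested higher and 13.8% lower. In cbp+/- 0% passed, with a smallest adjusted p of 0.0964 (Nr4a1) and 2374 probe sets at an unadjusted p under 0.05, and with array weights 1 passed. The count in wild type fell to 0 without WT_SC_1, to 2145 without WT_SC_2 and to 2071 without WT_EE_1. The difference between genotypes was tested directly as an interaction, for which 0% passed, with a smallest adjusted p of 0.212 and 3511 at an unadjusted p under 0.05. The exception was the fit without WT_EE_2, which rested on WT_EE_1 alone for that group and called 1800. The genotypes were therefore not shown to differ in their response. Changes in wild type and cbp+/- correlated across the 21780 probe sets (Pearson 0.62, or 0.57 after quantile normalization), and the SD of the change was 0.23 in wild type and 0.11 in cbp+/-. Probe sets share arrays and are not replicates, so no p is given.

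The activity-regulated genes had positive changes in both genotypes. Arc changed by 0.99 in wild type and 0.62 in cbp+/-, Fos by 0.96 and 0.53, Nr4a1 by 0.85 and 0.75, and Npy by 0.76 and 0.59. The interaction adjusted p was 0.306 for Arc, 0.254 for Fos, 0.650 for Nr4a1 and 0.481 for Npy. The bright genes with the smallest interaction p were Serpina3n, Sat1, Cspp1 and Tspan6, all with an adjusted p of 0.212. Serpina3n, an acute-phase protease inhibitor made by astrocytes, was at 9.58 and 9.74 in wild-type enrichment against 9.99 and 10.2 in wild-type cages, and at 10.1 and 9.81 in cbp+/- enrichment against 9.56 and 9.52 in cbp+/- cages. The change was -0.42 in wild type (adjusted p 0.0167) and 0.39 in cbp+/- (adjusted p 0.303), and the difference between them did not pass.

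The same comparison on replicates 3 to 5 gave 0% of probe sets past the threshold, with a smallest adjusted p of 0.441 and 2464 at an unadjusted p under 0.05. It rests on 2 enrichment arrays, WT_EE_3 and CBP_EE_3, against 6 standard-cage arrays that were less alike (correlations of 0.967 to 0.997 within these 8). The enrichment arrays correlated at 0.987 to 0.997 with the standard-cage arrays of replicate 5 and at 0.967 to 0.984 with those of replicates 3 and 4. Of the 2684 probe sets called in replicates 1 and 2, 1191, or 44.37%, had the same sign here. Across all probe sets the changes of both sets correlated at -0.18 (Pearson, -0.27 after quantile normalization).

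Npy, Bdnf and Penk were higher on both enrichment arrays of this set too, and Nr4a1, Arc, Fos and Dusp1 were not. Npy was at 9.88 on WT_EE_3 and 10.1 on CBP_EE_3, above all 6 standard-cage arrays of its set, which ran from 8.84 to 9.69, a change of 0.73 (SE 0.24). Bdnf was at 7.10 and 7.22 against 6.42 to 6.97, a change of 0.40 (SE 0.15). Penk was at 10.2 and 9.74 against 7.78 to 9.21, a change of 1.46 (SE 0.33). All of these had an adjusted p of 0.441, which did not pass. In contrast Nr4a1 was at 8.47 and 8.61 against 8.50 to 9.48, Arc at 8.09 and 8.76 against 8.31 to 9.32, and Dusp1 at 6.86 and 7.42 against 7.43 to 8.81, below all of them. The high standard-cage arrays for these genes were those of replicate 3. The median change of the activity transcription factors was -0.11 in this set, of the glucocorticoid targets -0.22, of the MAP kinase phosphatases -0.27, of the neuropeptides 0.16, of the protocadherin beta genes 0.048 and of the activity effectors 0.00089. Against the replicate 5 standard-cage arrays alone, an alternative chosen after seeing the data, the medians were in the same order 0.032, -0.28, 0.053, 0.042, -0.057 and -0.0072. The signs of the activity transcription factors, the MAP kinase phosphatases, the protocadherin beta genes and the activity effectors thus turned with the standard-cage arrays used. On these arrays Npy had a change of 0.35, Bdnf of 0.25, Penk of 0.98, Nr4a1 of -0.099 and Dusp1 of -0.48.

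**Figure D4:**
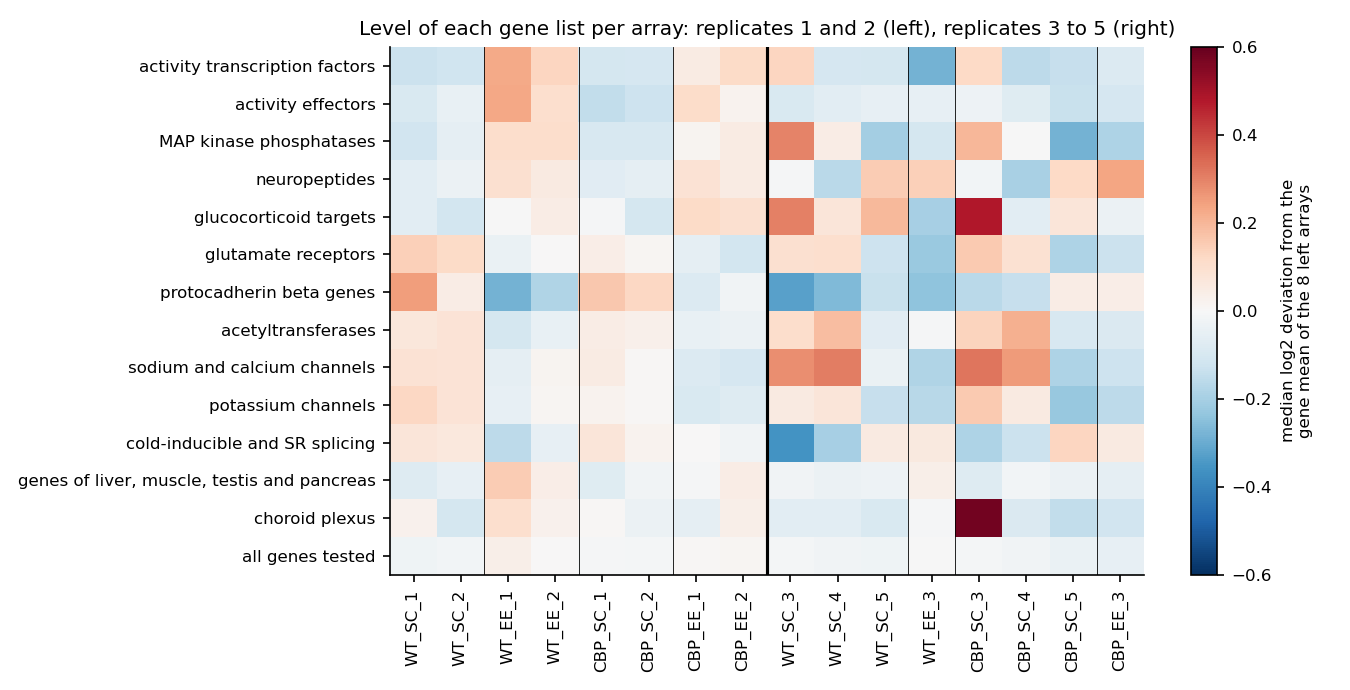
Level of 13 gene lists and of all genes (rows) on each of the 16 arrays (columns), as the median log2 deviation of the members from their mean over the 8 arrays on the left. The colour scale is capped at 0.6. On the left the 4 enrichment arrays are higher for activity-regulated lists and lower for protocadherin beta genes, while on the right the highest values of the phosphatases and glucocorticoid targets are on the standard-cage arrays of replicate 3.

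The difference between both sets was itself tested, as an interaction of housing with replicate set over all 16 arrays. It passed for 0.638% of probe sets with a higher change in replicates 1 and 2 and for 0.900% with a lower one, 335 in all. The count fell to 3 without WT_SC_1, WT_SC_2, WT_SC_3, WT_SC_4, WT_EE_2 or CBP_SC_1, to 4 without WT_EE_1, to 5 without CBP_SC_4 or CBP_EE_2 and to 0 without WT_EE_3. It rose to 733 without CBP_EE_1, 1128 without WT_SC_5, 1130 without CBP_EE_3 and 2863 without CBP_SC_5. Fos passed (difference 0.81, adjusted p 0.0428), while Nr4a1, Arc and Dusp1 had adjusted p of 0.0535, 0.0814 and 0.0752. Npy and Bdnf had 0.907 and 0.831. Other named genes passed too, among them Dbp (difference 1.20), Arhgap5 (-0.75), Guf1 (-0.87) and Stxbp4 (-1.26), with adjusted p of 0.0437, 0.0463, 0.0428 and 0.0428. All named genes that passed are given with the flagged results below. The clearest differences were Ccdc190 (changes of -0.02 and 0.54, adjusted p 0.00942), Maea (0.09 and -0.36), Sox2 (-0.47 and 0.71) and Tdrkh (-0.33 and 0.29).

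Of the 76 and 213 bright genes that met the stricter rule above, few separated the housings in the same direction on replicates 3 to 5: 3 of the rises (3.95%) and 9 of the falls (4.23%), against 6.11% and 6.94% of all probe sets on which both enrichment arrays lay above or below all 6 standard-cage arrays. The rises were Npy, Vwa3b (0.21 and 0.20 in the 2 sets) and Etv5, an ETS factor (0.18 and 0.13). The largest of the falls were Ano3 (-0.57 and -0.36), Zkscan16 (-0.51 and -0.27), Atp11b, a phospholipid flippase (-0.44 and -0.21), Grik2 (-0.39 and -0.20) and Xpot, the nuclear export receptor of tRNA (-0.39 and -0.48). Cirbp had changes of -0.38 and -0.58, with 7.73 and 8.38 in enrichment and 8.38 to 8.91 in standard cages of the later numbers. Among the 10 largest rises, Npy and Crhbp had positive changes in replicates 3 to 5 (0.73 and 0.05). The others had negative ones, from -0.91 for Dusp1 to -0.15 for Mettl23. Among the 10 largest falls, Setd2, Ano3, Fyttd1 and Zkscan16 were negative there. The others were positive, up to 0.74 for Stxbp4.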

How the data were processed

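Hippocampal RNA was read on 16 Affymetrix Mouse Gene 1.0 ST arrays, 4 pooled mice each. The deposited intensities are linear, 1 per probe set and array. The submitters' processing notes name RMA, and the labels' protocols name GeneSpring GX. Their versions, the genome build and any baseline centring: not given in the sources used here. Scanner files were not used here. RMA gives no detection call, and 2 arrays per group limit the precision.

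Of 28815 deposited probe sets, 21780 with exactly 1 symbol in the platform annotation were tested (19935 genes), 1605 had several symbols, and 5430 were unnamed here. RefSeq (GRCm38.p6) matched 21689 of those tested by gene number and served for gene spans and promoter windows. In R 4.3.3 with limma 3.58.1, lmFit and eBayes were run on log2 intensities of the 8 arrays with genotype and housing (5 residual degrees of freedom), on 4 group means for each genotype and the interaction, on the other 8 arrays, and on all 16 for the difference between sets. Adjustment was by Benjamini-Hochberg over every tested probe set, and a probe set passed at an adjusted p under 0.05. On simulated data of the main comparison with 21780 probe sets, 86 of 100 changes of log2 0.5 and 99 of 100 changes of log2 1 were recovered, with 19 false calls. The simulated noise was independent for each probe set and array, without the shift by brightness of the real arrays. These rates check the fit and do not give the rate of false calls in the real data. Groups and replicate numbers come from the titles. Same-numbered arrays did not deviate together (6 pairs of groups, correlations from -0.33 to 0.16, 1 of them over 0.1), so no replicate block was used.

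Alternatives were quantile and cyclic loess normalization, leaving out probe sets with a mean log2 signal under 7, a replicate block, array weights, an intensity trend, no genotype term, all 16 arrays and each array left out. Genes were named by a rule: a fixed list; the 10 largest changes per direction among bright genes (mean log2 at least 8) that passed, also after quantile normalization, with housings that did not overlap; the 3 largest among dim ones; those of the bright genes seen again in replicates 3 to 5; the 4 smallest p of either interaction; and up to 4 members per list described, by p. Further list members named in the text were chosen after their values were seen. The 38 lists (762 entries, 693 matched, 3 to 36 members) and the comparison itself were chosen with earlier results of these data known, so lists have counts and medians but no test. Lists not described in the text are summarised under other observations.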

Additional observations from a re-analysis of the deposited data

Results flagged for a closer look

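In 6 of 178 groups of 4 arrays tested (88 genes and the interquartile range of signals, in enrichment and in standard cages), 1 array stood apart by Dixon's ratio of its gap to the group's range, beyond its 95% critical value; chance flags about 1 in 20 groups. All 6 were standard-cage groups. CBP_SC_1 was low for Zkscan16 (8.85 against 9.01 to 9.03, ratio 0.887) and high for Vwa3b (8.13 against 8.07 to 8.08, ratio 0.878). WT_SC_1 was low for Sik1 (7.02 against 7.22 to 7.25, ratio 0.855) and for Trib1 (6.16 against 6.36 to 6.39, ratio 0.882). CBP_SC_2 was low for Gria1 (11.43 against 11.52 to 11.53, ratio 0.891), and WT_SC_2 was high for Ep300 (8.54 against 8.42 to 8.43, ratio 0.926). In each case the far array still lay on the standard-cage side of all 4 enrichment arrays.

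The housing change differed between replicates 1 and 2 and replicates 3 to 5 for 13 of the 88 genes, by the interaction term over all 16 arrays. Over all probe sets this term passed for 0.638% higher and 0.900% lower in replicates 1 and 2. Ccdc190, Maea, Sox2 and Tdrkh were named for the smallest p of this term among bright genes. Other genes were named for a large change in replicates 1 and 2, which favours a difference, so the count is raised by the choice of genes. The change in replicates 1 and 2 was higher than in replicates 3 to 5 for Fos by 0.81, Dbp by 1.20, Maea by 0.46, Sik1 by 0.91 and Nfkbia by 0.83. It was lower for the other 8, with differences of -0.75 for Arhgap5, -0.87 for Guf1, -1.26 for Stxbp4, -0.57 for Ccdc190, -1.18 for Sox2, -0.61 for Tdrkh, -0.999 for Pcdhb3 and -0.61 for Pcdhb22. The adjusted p ranged from 0.00942 for Ccdc190 to 0.0481 for Sik1. Replicates 3 to 5 hold 1 enrichment array per genotype, and the labels do not say how the replicate numbers differ, so number and any difference in handling cannot be told apart.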

How the results depend on the processing

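Against 2684 calls for housing, quantile normalization gave 1573, leaving out dim probe sets 1688, array weights 5296 and the replicate block 921, of which 914 were among the 2684. Cyclic loess, no genotype term and an intensity trend stayed within 1.5 times. All 16 arrays gave 0 (smallest adjusted p 0.0655). Of the 2684, 2437 had the same sign there, which is favoured because the 16 include the 8 arrays that made the calls. On replicates 3 to 5 alone 1191 of the 2684 had the same sign. Leaving out 1 array, which leaves its group with 1 array assumed to vary like the others, gave 1 to 5240. In wild type (6513) quantile normalization gave 3728, cyclic loess 3941, leaving out dim probe sets 3070, and leaving out arrays 0 to 9003. In cbp+/- (0) leaving out dim probe sets and array weights each gave 1. The genotype interaction gave 0 to 1800 with arrays left out. The difference between replicate sets (335) was 564 with quantile normalization and 0 to 2863 with arrays left out. Replicates 3 to 5 stayed at 0 in all settings run, including one chosen after seeing the data, with the standard-cage arrays of replicate 5 only. The difference in interquartile range was -0.17, and -0.14 over all deposited probe sets. Replicate numbers did not pair the arrays, so the replicate block tests no pairing. It ended the call of 15 of 88 named genes. The causes were not tested.

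Over all 2684 calls, 1211, or 45.12%, were called in the same direction after quantile normalization. The naming rule for bright genes required such a call, so for these genes it was fixed in advance. Of the 88 named genes, 76 kept direction and call with quantile normalization and 78 with loess. With all 16 arrays the sign turned for 17: Dusp1 -0.025, Igf1 0.061, Fkbp5 -0.19, Per1 -0.25, Dbp -0.26, Rpph1 -0.057, Stxbp4 0.053, Serpina3n 0.10, Tspan6 0.10, Ccdc190 0.24, Maea -0.038, Sox2 0.11, Dusp5 -0.082, Sgk1 -0.066, Nfkbia -0.12, Grm2 -0.064 and Pcdhb3 0.011. Serpina3n also turned with quantile normalization (0.065), loess (0.063) and array weights (0.023), and Ccdc190 with quantile normalization (0.053) and loess (0.045). With arrays left out, Igf1 ran from -0.031 to 0.018, Fkbp5 from -0.0086 to 0.080 and Serpina3n from -0.14 to 0.10. Of 38 list medians, 17 moved by less than the spread between arrays with quantile normalization and 21 by more, and 34 and 4 with all probe sets of the members.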

Other observations

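Other groups of genes gave calls for few members each, beside 6.17% higher and 5.64% lower over all genes. Among cell types of the hippocampus, Wfs1, a membrane protein of the endoplasmic reticulum that marks CA1, rose by 0.33 (SE 0.047, adjusted p 0.0200) from 7.78 to 8.01 in standard cages to 8.04 to 8.38 in enrichment. It was the 1 of 10 CA1 genes that passed. Bok, a relative of Bcl2 listed with CA3, rose by 0.42 (SE 0.059) as the 1 of 13 genes of CA3 and CA2 that passed, and of 14 genes of dentate granule cells 1 passed lower (Stxbp6, -0.28). In replicates 3 to 5 Wfs1 and Bok had changes of -0.35 and -0.38. Slc2a1, the glucose transporter of brain endothelium, rose by 0.33 (SE 0.052, adjusted p 0.0202), from 8.93 to 9.22 in standard cages to 9.20 to 9.57 in enrichment. It overlapped slightly between housings, and its change in replicates 3 to 5 was -1.02. Of 17 endothelial and pericyte genes, Slco1a4 (-0.37) and Pecam1 (-0.19) fell. In oligodendrocytes 2 of 20 passed higher, Mog (0.26) and Mal (0.24), and 1 lower, Aspa (-0.28), while Mbp had a change of 0.00.

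Of 21 postsynaptic scaffolds and kinases, Camk2d (-0.38), Nlgn1 (-0.30) and Camk2g (-0.26) fell and 0 rose, and of 23 synaptic vesicle genes Sv2b (-0.20) and Rims2 (-0.17) fell; Camk2g and Rims2 did not pass after quantile normalization, with adjusted p of 0.0638 and 0.252. Both lists' medians were below 0, at -0.07 and -0.05, and turned to 0.01 with quantile normalization. Of 36 genes of oxidative phosphorylation 3 rose (Ndufa7, Ndufa2 and Atp5d, 0.28, 0.23 and 0.15), and of 28 ribosomal protein genes 3 rose (Rps19, Rplp0 and Rpl27) and 2 fell (Rpl8 and Rps2), the falls not after quantile normalization. Of 27 chaperones Hspa5 and Sdf2l1 rose, and Hspa1a had a change of 0.06. The remaining lists gave 2 of 15 neurotrophins and growth factors higher (Bdnf and Fgf2), 1 of 16 astrocyte genes higher (S100b) and 1 lower (Gja1), 1 of 17 microglial genes higher (Tmem119), 1 of 15 meningeal genes higher (Igfbp2, 0.26), 1 of 13 clock outputs in each direction (Tsc22d3 and Hlf) and 0 of 16 interferon-stimulated genes. Of the genes of this and the previous paragraph, Stxbp6, Pecam1, Aspa, Fgf2, Gja1, Tmem119, Tsc22d3 and Hlf did not pass after quantile normalization.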
